A study of Homo sapiens with 9 samples.

Results

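Genes for the core of the spliceosome and for the SR proteins were followed through treatment of MIA PaCa-2 cells with an ERK inhibitor or with an inhibitor of TBK1 and IKKε. The members were the protein-coding genes whose symbol begins with SNRP, or with PRPF, SRSF or LSM and a digit, or is one of the SF3A, SF3B or U2AF subunit genes, and 61 of the 58735 genes in the count table met this rule. They were placed in 5 groups by function, with 25 Sm and LSm genes (the SNRP and LSM names), 9 SF3 genes, 13 PRPF genes, 12 SR genes and 2 U2AF genes. MIA PaCa-2 cells are a long-established line from a human pancreatic cancer, and their genotype is labelled WT in every sample. Cells received for 24-h either 0.1% dimethyl sulfoxide (DMSO), the vehicle, or 1 μM SCH772984, which inhibits ERK1/2, or 1 μM compound 1, which inhibits TBK1 and IKKε. Each condition had 3 RNA-Seq libraries, and the labels do not say whether these came from separate cultures, so the p-values measure the spread between these samples, which may be technical.

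The spliceosome removes introns from pre-mRNA. It is built from small nuclear ribonucleoproteins (snRNPs), in which a ring of Sm proteins, or of the related LSm proteins on U6 RNA, holds the small nuclear RNA. SF3A and SF3B belong to the U2 snRNP, which binds at the branch point, U2AF recognizes the end of the intron before it, and many PRPF proteins act in the U4/U6.U5 tri-snRNP or in the rearrangements that activate the spliceosome. SR proteins bind exons through an RNA recognition domain, help recruit these parts, and carry an arginine- and serine-rich tail that is phosphorylated by the SRPK and CLK kinases.

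Each library held between 9464432 and 13887859 counts. The ERK target genes DUSP6, SPRY4, ETV4 and ETV5 fell with SCH772984, with log2 fold changes of -6.82 to -5.80, and had adjusted p-values of 0.549 to 0.989 with compound 1 (edgeR quasi-likelihood test). The keratin genes KRT8 and KRT18 had at least 1840 counts in every library but fell with SCH772984, by 1.69 (adjusted p = 1.85e-27) and 2.40 (adjusted p = 4.04e-32) on the log2 scale, more than any member, and had adjusted p-values of 0.36 and 0.407 with compound 1. The mesenchymal marker VIM had at least 21970 counts and fell by 0.23 with SCH772984 (adjusted p = 0.000899), whereas EPCAM had 0 and CDH1 had 0 to 5, so 2 of the 4 epithelial markers were at or near 0. Among markers of other cell types, PTPRC and CD3E had 0 counts and PECAM1 and DCN at most 1 in every library, and COL1A1 ranged from 1 to 4 without SCH772984 and from 28 to 48 with it. CDH5 ranged from 28 to 63 without SCH772984 and from 0 to 4 with it. Mitochondrially encoded genes took 3.33% to 3.98% of the counts with DMSO or compound 1 and 6.23% to 7.52% with SCH772984. The part of these differences in the changes of the members was not tested. Compound 1 replicate 1 stood apart from the other 2 libraries of its group, since the chi-square of its counts over genes, divided by the degrees of freedom, was 10.1 and 7.61 against them and 2.66 between them, so results with compound 1 are also given without it or library by library.

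Promoters are shown for 5 members on which the results turn. PRPF4 had the largest fall of any member with SCH772984 and SNRPN the largest rise. SRSF1 and SRSF5 moved furthest apart within the SR group, and SNRPB had the highest level per length, and these 3 were chosen after their values were seen. The 250 bases before the RefSeq start site (GRCh38.p14) are written 5′ to 3′ on the gene's own strand. Capitals mark CCGGAA, the core letters of a site for ETS factors, a family that includes ERK targets, or its reverse complement. PRPF4 lies at chr9:113275408-113275657, plus strand. SNRPB lies at chr20:2470790-2471039, minus strand. SRSF1 lies at chr17:58007247-58007496, minus strand. SRSF5 lies at chr14:69766892-69767141, plus strand. SNRPN lies at chr15:24856321-24856570, plus strand. The windows of SRSF5 and SNRPN lie far inside the genes as counted, which start at 69726900 and 24823637. Other start sites were not searched.
PRPF4: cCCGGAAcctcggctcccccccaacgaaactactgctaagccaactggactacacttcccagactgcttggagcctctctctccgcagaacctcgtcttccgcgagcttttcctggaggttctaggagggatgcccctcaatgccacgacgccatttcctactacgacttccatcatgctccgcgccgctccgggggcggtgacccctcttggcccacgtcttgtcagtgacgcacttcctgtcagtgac
SNRPB: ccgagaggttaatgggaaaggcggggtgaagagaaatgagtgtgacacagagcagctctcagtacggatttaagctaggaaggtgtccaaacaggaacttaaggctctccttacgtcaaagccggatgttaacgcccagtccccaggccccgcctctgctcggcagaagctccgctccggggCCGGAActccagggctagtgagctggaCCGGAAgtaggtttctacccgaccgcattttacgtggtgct
SRSF1: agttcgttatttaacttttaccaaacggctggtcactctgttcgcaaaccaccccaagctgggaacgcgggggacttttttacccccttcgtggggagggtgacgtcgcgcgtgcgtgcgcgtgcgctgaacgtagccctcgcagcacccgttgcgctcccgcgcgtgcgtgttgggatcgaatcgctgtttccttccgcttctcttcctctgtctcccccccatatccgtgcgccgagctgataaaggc
SRSF5: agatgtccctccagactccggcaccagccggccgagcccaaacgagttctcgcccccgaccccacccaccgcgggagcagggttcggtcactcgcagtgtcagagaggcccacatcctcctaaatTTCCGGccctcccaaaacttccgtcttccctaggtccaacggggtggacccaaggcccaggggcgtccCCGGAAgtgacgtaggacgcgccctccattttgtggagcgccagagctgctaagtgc
SNRPN: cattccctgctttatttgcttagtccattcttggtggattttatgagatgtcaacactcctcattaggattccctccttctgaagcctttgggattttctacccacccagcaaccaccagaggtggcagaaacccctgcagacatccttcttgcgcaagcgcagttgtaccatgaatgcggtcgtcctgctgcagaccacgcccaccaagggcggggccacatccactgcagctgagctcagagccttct

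The match in PRPF4 began 249 bases before the start, those in SNRPB 68 and 41 bases before it, and those in SRSF5 125 and 57 bases before it. SRSF1 and SNRPN had no match in these letters. RefSeq promoters of 300 bases, from 250 before the start to 50 after it, were found for 51 of the 61 members. CCGGAA on either strand was in 24 of these 51 (47.1%), in 21.2% of the 22199 promoters of protein-coding genes and in 17.2% of all 35116 promoters. It was in 6 of 8 SF3 promoters, 5 of 9 PRPF promoters, 10 of 21 Sm and LSm promoters and 2 of 11 SR promoters. Among members that fell with SCH772984 it was in 21 of 42, and among members that rose in 1 of 4, which was SRSF5, and among members tested and not called in 2 of 4. The E-box CACGTG, the letters of the MYC site, was in 1 of the 51 member promoters, that of SF3B1, against 8.34% of protein-coding promoters. CACGTG reads the same on both strands and is in none of the promoters shown. A match describes letters in these windows and does not show that a factor binds there.

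Levels in DMSO were compared per length, in RPKM (TMM-normalized reads per kilobase of exon, scaled to library size). The median over the 13834 genes tested against SCH772984 was 4.66 RPKM. SNRPB, an Sm ring protein, was the highest member at 283 RPKM. SF3B5 followed at 189, SNRPD2 at 154, SF3B6 at 131, U2AF2 at 119.8, SNRPC at 112 and PRPF8 at 92.2 RPKM. The median member of the SF3 group had 49.6 RPKM, of the SR group 31.7, of the Sm and LSm group 27.0 and of the PRPF group 20.5 RPKM. The lowest members were SRSF12 at 0.064 RPKM, PRPF40B at 0.354, SNRPN at 0.410 and U2AF1 at 0.860 RPKM. SRSF12 had 0 to 7 counts per library and passed no filter on low counts, so 60 members were tested in each comparison.

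**Figure D1:**
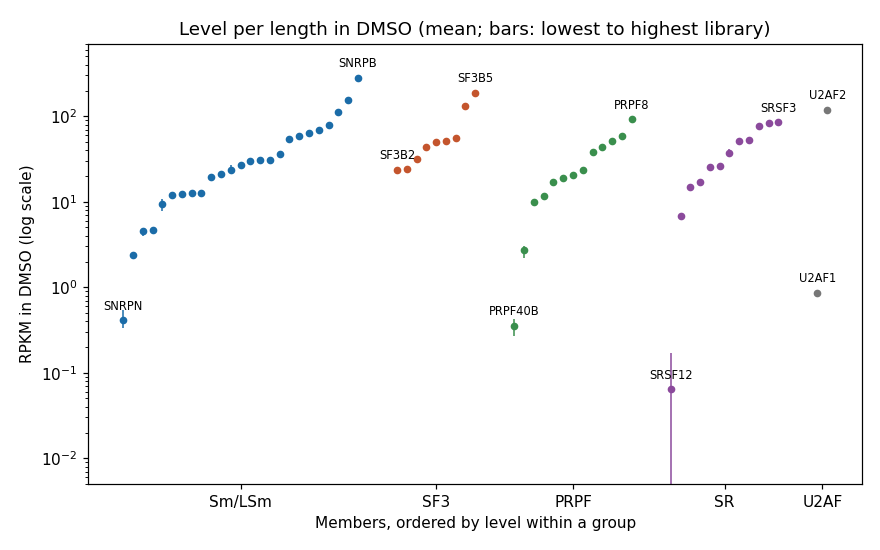
Level of each of the 61 members per length in DMSO (RPKM, log scale), by group and in rising order within a group. Points are means of 3 libraries and bars run from the lowest to the highest library, and the bar of SRSF12 leaves the axis because 1 library had 0 counts. SNRPB is highest at 283 RPKM and SRSF12 lowest at 0.064.

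ERK inhibition was compared with DMSO first. Of the 60 members tested, 51 fell and 5 rose with SCH772984 (85.0% and 8.33%). Over all 13834 genes tested, 35.5% fell and 37.2% rose (edgeR, Benjamini-Hochberg adjusted p under 0.05). The median log2 fold change was -0.62 over the members and 0.03 over all genes. Members were measured more precisely than most genes, with a median standard error of 0.07 against 0.12 on the log2 scale, which bears on the share called but not on the median. In 50 of the 51 members that fell, all SCH772984 libraries lay below all DMSO libraries, the exception being LSM1. The members that rose were SNRPN, PRPF40B, PRPF39, SRSF5 and SRSF11, and in all 5 the groups did not overlap. Overlap was not counted over all genes, so these counts describe the libraries and are no support beyond the calls. Scaled by library size alone, which moved the median of all genes to 0.20, 45 members fell and 6 rose, and PRPF4B and LSM8 changed sign. As a share of all counts, the members took 0.937% to 0.957% with DMSO, 0.924% to 0.948% with compound 1 and 0.690% to 0.711% with SCH772984. These are shares of the RNA sequenced, with no spike-in RNA used here, so the amount of these transcripts per cell was not measured. Because RNA was pooled over cells, a smaller share of cells with these transcripts and less of them in every cell cannot be told apart.

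**Figure D2:**
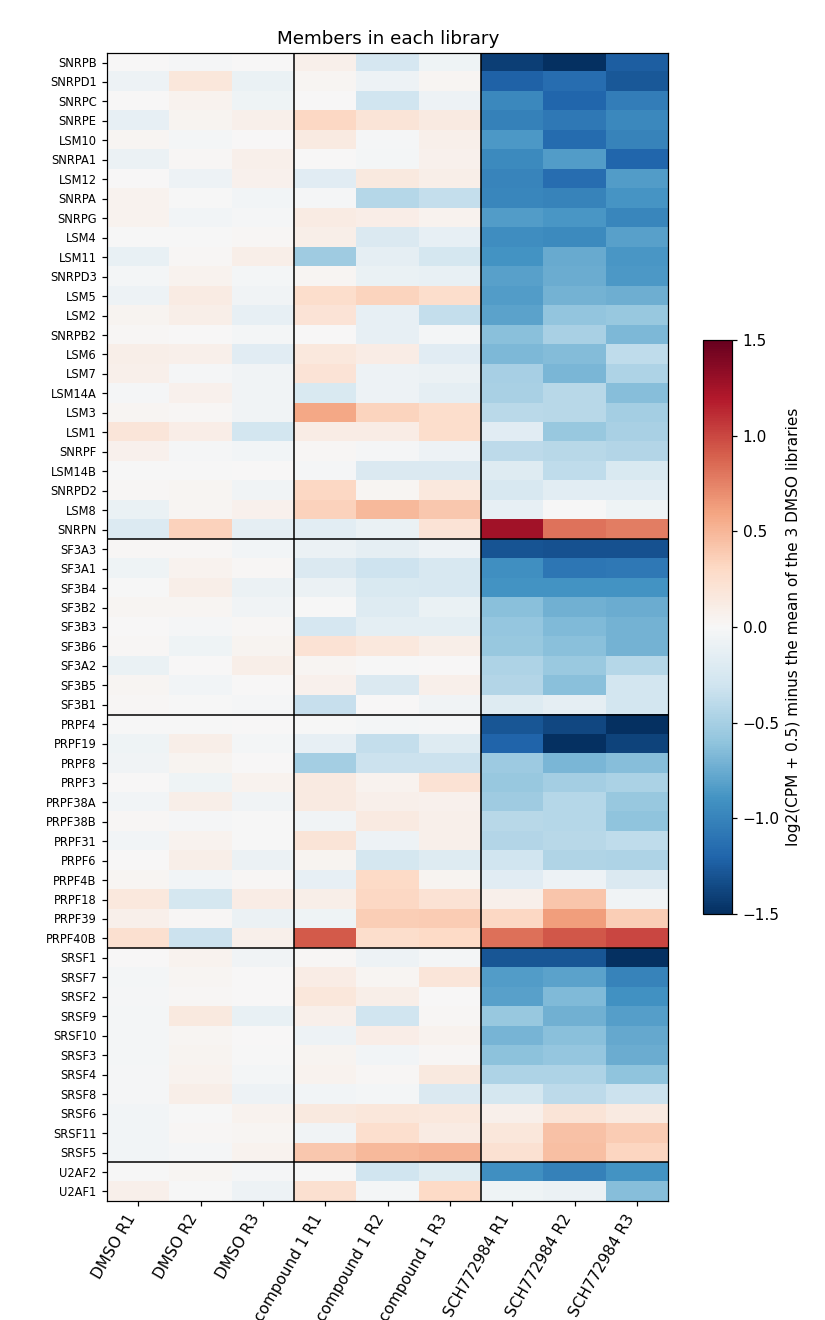
Tested members, all but 1 of them (rows, by group and in order of its change with SCH772984) in each of the 9 libraries (columns), as log2(CPM + 0.5) minus the mean of the 3 DMSO libraries, with blue below and red above that mean and colors capped at 1.5. The 3 SCH772984 columns are blue for most rows, with SNRPN, PRPF40B, PRPF39, SRSF5 and SRSF11 red.

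All groups had a median below 0, and they differed in size. The median log2 fold change was -0.77 for the 25 Sm and LSm genes (23 fell, 1 rose), -0.65 for the 9 SF3 genes (all fell), -0.65 for the 11 tested SR genes (8 fell, 2 rose) and -0.42 for the 13 PRPF genes (10 fell, 2 rose). With library size alone they were -0.60, -0.48, -0.48 and -0.24. Taken library by library against the DMSO mean, the group medians were -0.81, -0.71 and -0.74 for Sm and LSm, -0.58, -0.66 and -0.71 for SF3, -0.52, -0.52 and -0.67 for SR with SRSF12 included, and -0.41, -0.42 and -0.47 for PRPF in SCH772984 replicates 1, 2 and 3. In each of the 3 libraries the Sm and LSm median was the farthest from 0 and the PRPF median the nearest to it, with SF3 and SR between them. The 2 U2AF genes were left out of this order and had a median log2 fold change of -0.61 (1 fell). Summed over a group, normalized counts with SCH772984 were 52.5% of the DMSO level for the 2 U2AF genes, 58.4% for Sm and LSm, 65.1% for SF3, 68.7% for PRPF and 74.2% for SR. Differences between groups were not tested, because genes are not replicates.

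The Sm ring genes spanned nearly the whole range of the changes. SNRPB (ENSG00000125835, chromosome 20, 2461634 to 2470853), which encodes the Sm proteins B and B', had 362, 358 and 364 CPM (TMM-normalized counts scaled to library size) with DMSO, 381, 304 and 345 with compound 1, and 135, 126 and 153 with SCH772984. The SCH772984 libraries were all below the lowest other library, and SNRPB was at 38.1% of the DMSO level (log2 fold change -1.39 ± 0.07 SE, n = 3 per group, edgeR adjusted p = 4.64e-23). SNRPD1 fell by 1.23, SNRPE by 1.03, SNRPG by 0.91, SNRPD3 by 0.82 and SNRPF by 0.43 on the log2 scale. SNRPD2, whose product sits in the same ring, fell by 0.19 ± 0.06, from 249.9, 254 and 239 CPM to 209, 222 and 221 CPM, and did not pass with library size alone (-0.02) or with at least 10 counts in every library (-0.11). The ratio of SNRPB to SNRPD2 counts, which no scaling of libraries can move, was 1.41 to 1.52 with DMSO, 1.20 to 1.25 with compound 1 and 0.568 to 0.693 with SCH772984, with no overlap between conditions.

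SNRPN (ENSG00000128739, chromosome 15, 24823637 to 24978723), an imprinted gene that encodes the SNRPB-like protein SmN and is best known from brain, moved the other way at a far lower level. It had 11, 17 and 11 counts with DMSO and 48, 33 and 40 with SCH772984, which is 1.13, 1.87 and 1.20 CPM against 3.98, 2.78 and 2.68 CPM. Every SCH772984 library was above every DMSO library, and the log2 fold change was 1.16 ± 0.33 (2.23-fold, adjusted p = 0.00196). SNRPN shares 18.6% of its 100-base stretches with other genes, mainly the overlapping SNURF on the same strand, which had 2 to 4 counts with DMSO and 9 to 16 with SCH772984.

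The 4 members with SNRP names that are specific to the U1 or U2 snRNP fell. SNRPC, of the U1 snRNP that binds the start of the intron, fell by 1.07 ± 0.07, from 144, 148 and 137 CPM to 72.9, 62.6 and 69.2 CPM. SNRPA, also of U1, fell by 0.96. SNRNP70, another protein gene of U1 that the rule for members does not take, was at -0.01 and did not pass (adjusted p = 0.836), and it was called higher with library size alone. Of the U2 proteins, SNRPA1 fell by 1.02 ± 0.10 and SNRPB2 by 0.60 ± 0.08, and neither overlapped between the conditions.

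In the LSm ring, which binds U6 RNA in the nucleus with LSM8 and takes part in mRNA decay in the cytoplasm with LSM1 in its place, 7 of 8 genes fell. LSM4 fell most, by 0.91 ± 0.06, from 238, 239 and 243 CPM to 125, 124 and 136 CPM. LSM5 fell by 0.77, LSM2 by 0.67, LSM6 by 0.58, LSM7 by 0.55, LSM3 by 0.45 and LSM1 by 0.43. LSM1 did not pass without DMSO replicate 1 or with library size alone. LSM8 was the ring gene that did not pass, at 27.0, 29.4 and 30.3 CPM with DMSO and 26.5, 28.6 and 27.7 CPM with SCH772984 (log2 fold change -0.07, 95% interval -0.27 to 0.12, adjusted p = 0.531), and was at 0.10 with library size alone. All 5 LSM genes outside this ring fell, but LSM14B did not pass with library size alone. LSM10 (-1.02) and LSM11 (-0.88) encode ring proteins of the U7 snRNP, which processes histone mRNA, LSM12 fell to 50.1% of DMSO, and LSM14A (-0.52) and LSM14B (-0.27) encode proteins of cytoplasmic mRNA granules.

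All 9 SF3 genes fell, and none overlapped between DMSO and SCH772984, which was not counted over all genes. SF3A3 (-1.31 ± 0.07) led, with 212, 212 and 203 CPM against 84.9, 84.0 and 84.2 CPM, and the other SF3A subunits were at -1.03 (SF3A1) and -0.49 (SF3A2). Among the SF3B subunits SF3B4 was at -0.91, SF3B2 at -0.71, SF3B3 at -0.65, SF3B6 at -0.64 and SF3B5 at -0.45. SF3B1, the largest subunit and one often mutated in cancer, fell least, by 0.21 ± 0.06, from 460.5, 454 and 449 CPM to 397, 412 and 375 CPM (adjusted p = 0.00169), and with library size alone it was at -0.03 and not past the threshold, which left 8 of 9.

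The PRPF genes had the median nearest to 0 and held members at both ends. PRPF4 (ENSG00000136875, chromosome 9, 113275343 to 113292905), of the U4/U6 snRNP, had 159, 159.7 and 161 CPM with DMSO, 159, 157 and 158 CPM with compound 1 and 65.3, 61.6 and 56.3 CPM with SCH772984. It fell to 38.0% of DMSO (log2 fold change -1.40 ± 0.07, adjusted p = 4.79e-22), and the log2 fold change with compound 1 was -0.02 ± 0.07. PRPF19, the ubiquitin ligase of the complex named after it, fell by 1.38 ± 0.08. PRPF8, the large protein at the catalytic center, fell by 0.63 ± 0.06, from 1010.0, 1078 and 1053 CPM to 717, 650.1 and 674 CPM. PRPF3 (-0.53), PRPF31 (-0.42) and PRPF6 (-0.41), all of the tri-snRNP, fell, as did PRPF38A (-0.52), PRPF38B (-0.49) and the kinase gene PRPF4B (-0.16). The PRPF4B call was lost with library size alone (0.02), with at least 10 counts in every library, with all 9 libraries in one fit, with protein-coding genes only, and without DMSO replicate 1 or SCH772984 replicate 3.

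PRPF39 and PRPF40B, whose products are linked to the U1 snRNP, rose. PRPF39 went from 51.2, 49.4 and 45.7 CPM to 60.4, 75.6 and 63.0 CPM (0.44 ± 0.09, adjusted p = 1.47e-05). PRPF40B was low throughout, at 3.99, 2.54 and 3.50 CPM with DMSO and 6.22, 6.74 and 7.10 CPM with SCH772984 (0.99 ± 0.22), and it shares 33.6% of its 100-base stretches with other genes, above all FMNL3 on the opposite strand. PRPF18, a second-step factor at 4.08 to 5.63 CPM with DMSO and 4.82 to 6.82 CPM with SCH772984, did not pass (0.14, interval -0.27 to 0.56), and it shares 32.3% of its 100-base stretches with other genes, mainly AL157392.5 on the same strand.

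**Figure D3:**
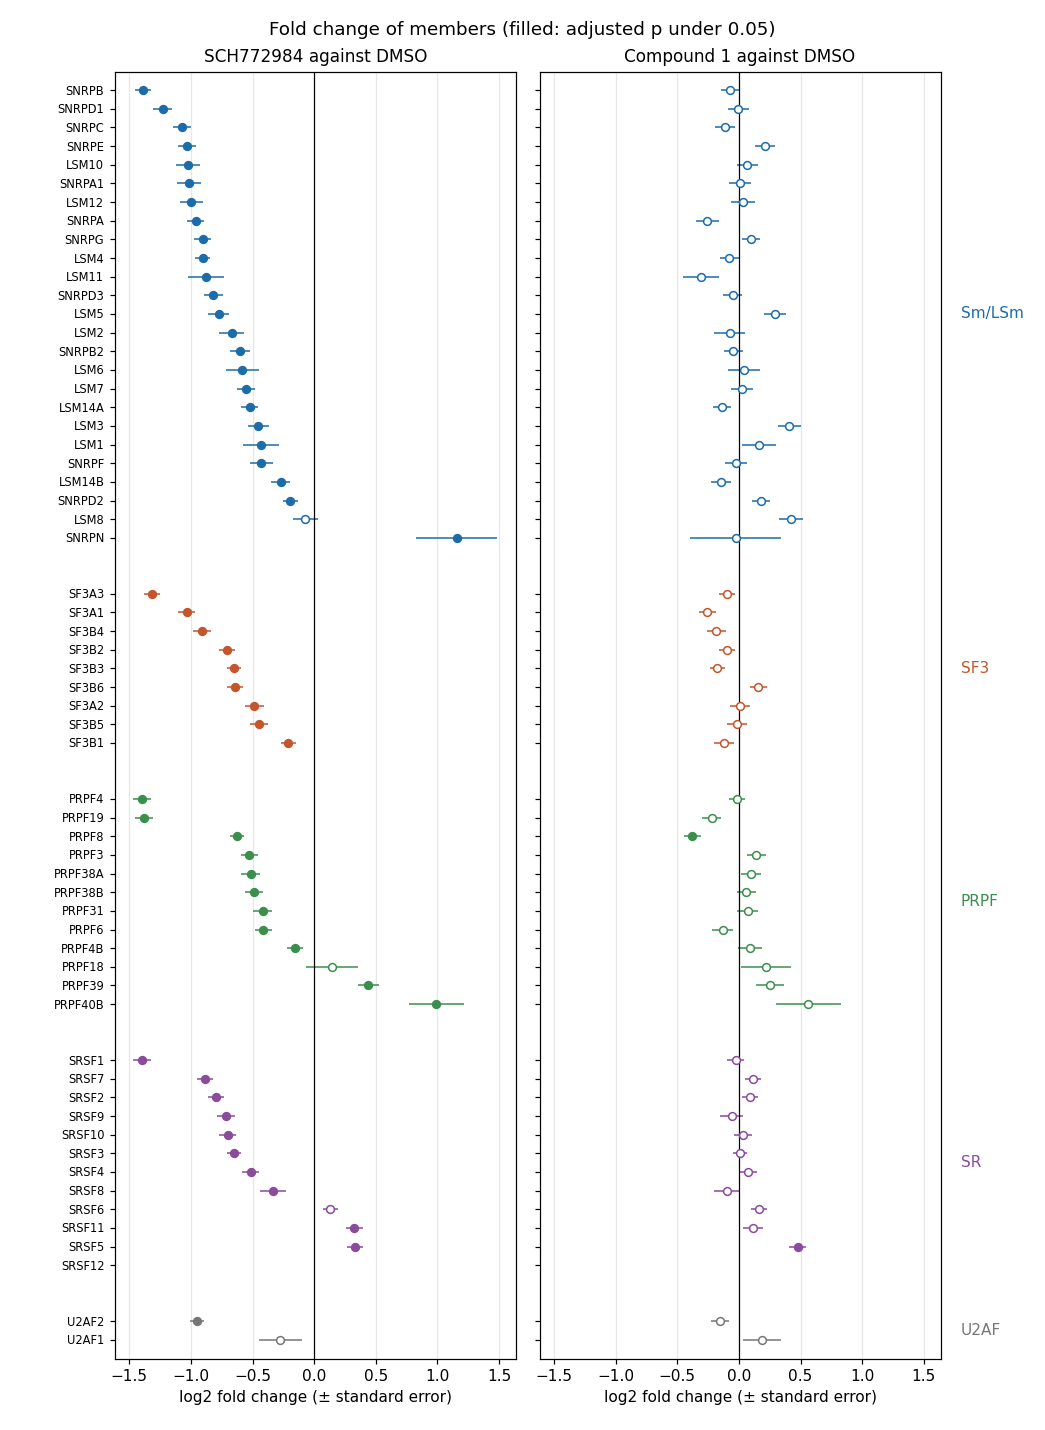
Log2 fold change of the members, all but 1 of them, with SCH772984 (left) and with compound 1 (right) against the same DMSO libraries, with bars of 1 standard error from edgeR, by group. Filled points have an adjusted p under 0.05, which holds for most members on the left, nearly all of them below 0, and for PRPF8 and SRSF5 on the right. SRSF12 was not tested.

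The SR genes moved in both directions with SCH772984. SRSF1 (ENSG00000136450, chromosome 17, 58003360 to 58007346), the founding member of the family, had 173, 179 and 167 CPM with DMSO, 174, 164 and 169 CPM with compound 1 and 70.5, 70.4 and 57.6 CPM with SCH772984. It fell to 38.0% of DMSO (-1.40 ± 0.07, adjusted p = 2.50e-21). SRSF7 fell by 0.89, SRSF2 by 0.80, SRSF9 by 0.72, SRSF10 by 0.70, SRSF3 by 0.65, SRSF4 by 0.52 and SRSF8 by 0.34. SRSF3, the highest SR gene per length, went from 591, 621 and 605 CPM to 396, 404 and 362 CPM.

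SRSF5 (ENSG00000100650, chromosome 14, 69726900 to 69772005) had 135, 137 and 144 CPM with DMSO and 163, 189 and 173 CPM with SCH772984, and rose by 0.33 ± 0.07 (adjusted p = 2.67e-05). SRSF11 had 211, 220.3 and 222 CPM with DMSO and 244, 295 and 283 CPM with SCH772984, and rose by 0.33 ± 0.07 (adjusted p = 2.28e-05). SRSF6 was also higher in every SCH772984 library (252, 273 and 263 CPM) than in any DMSO library (232, 238 and 248 CPM), but at 0.13 ± 0.06 it missed the threshold (adjusted p = 0.0538). SRSF6 was called higher with library size alone (0.30), among protein-coding genes only (0.18), with at least 10 counts in every library (0.21) and without SCH772984 replicate 1 (0.15). The ratio of SRSF5 to SRSF1 counts was 0.765 to 0.867 with DMSO, 1.06 to 1.18 with compound 1 and 2.31 to 3.01 with SCH772984, again without overlap.

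These values sum all transcripts of a gene. SR genes are known for exons whose inclusion sends the transcript to nonsense-mediated decay, and GENCODE 29 marks 25 of the 114 transcripts of the 12 SR genes (21.9%), with at least 1 in each gene, as decay targets, against 5.48% for SF3, 7.74% for Sm and LSm, 8.65% for PRPF and 4 of the 20 transcripts of the U2AF genes. Gene counts do not separate these from coding transcripts. SRSF1 shares 49.2% of its 100-base stretches with other genes, mainly AC015813.2 on the same strand, SRSF9 shares 41.6% with GATC and SRSF2 23.1% with MFSD11, both on the opposite strand. In all, 12 members share over 10% of these stretches, and those not given with their own values are LSM1 (17.8% with AC084024.3 alone), LSM12 (17.4%), SNRPD3 (15.3%), SNRPB (11.5%) and PRPF31 (10.4%). The strand setting of the counting is not given in the sources used here.

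**Figure D4:**
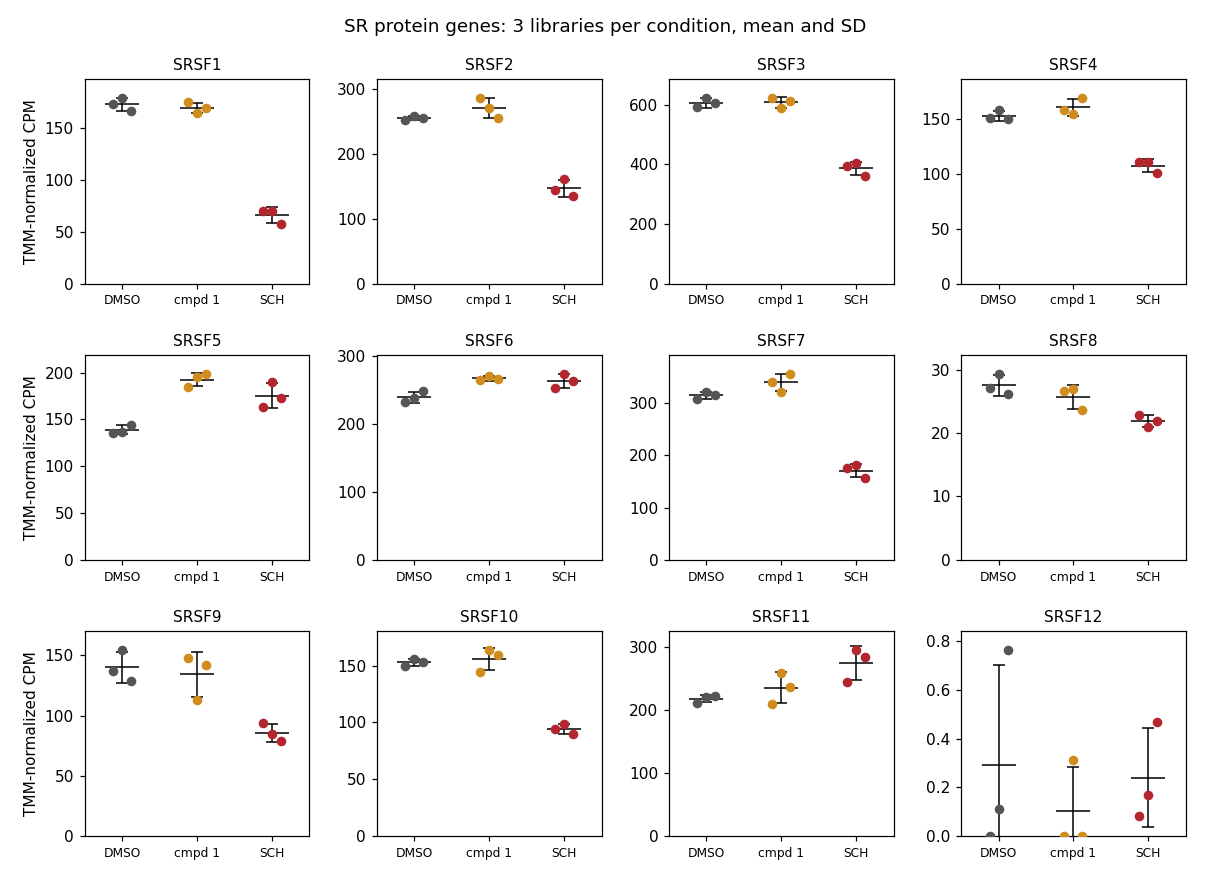
Normalized CPM of the 12 SR genes in DMSO, compound 1 (cmpd 1) and SCH772984 (SCH), with each library as a point, a horizontal mark at the mean and bars of 1 SD (n = 3), on axes that start at 0. SRSF1 drops from 167 to 179 CPM in DMSO to 57.6 to 70.5 CPM with SCH772984, and SRSF5 is above its DMSO range with both inhibitors.

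U2AF2, the large U2AF subunit, which binds the pyrimidine-rich stretch before the end of the intron, fell by 0.95 ± 0.06, from 490.3, 503 and 486 CPM to 261, 243 and 264 CPM. For U2AF1, the small subunit, the count is uncertain, since 89.4% of its 100-base stretches are shared with the near-identical U2AF1L5 on the same chromosome. U2AF1 had 83 to 99 counts with DMSO and 89 to 110 with SCH772984 and did not pass (-0.27, interval -0.62 to 0.07). U2AF1L5 had 64, 510 and 330 counts with DMSO, 60, 41 and 58 with compound 1 and 95, 48 and 271 with SCH772984, a spread within groups that leaves the summed pair without a usable comparison.

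A list of 70 other spliceosome genes was read from the same fit. With SCH772984, 52 fell and 9 rose (74.3% and 12.9%, against 35.5% and 37.2% of all genes tested), with a median log2 fold change of -0.62. Of 14 other snRNP proteins 12 fell, led by PHF5A (-1.61 ± 0.10), a partner of SF3B1, and SNRNP35 of the minor spliceosome rose (0.88 ± 0.26) at 1.98 to 5.56 CPM. Of 15 genes for snRNP assembly and import, which load the Sm ring on the RNA, 14 fell, with WDR77 at -1.45 and GEMIN4 at -1.44, and GEMIN8 rose (0.81). In the Prp19 complex 11 of 14 fell and none rose, at an unadjusted p either, and with library size alone AQR, PLRG1 and XAB2 did not pass, which left 8 of 14. In the exon junction complex 3 of 4 fell, with MAGOH at -1.31. Of 5 helicases and second-step factors 3 fell, with a median of -0.23, and DHX38 (-0.14) and SLU7 (-0.05) did not pass. DHX8 (-0.23), among those that fell, was lost with library size alone and with at least 10 counts in every library. Of 8 genes of splice site recognition 5 fell and DDX39B (0.43) and SUGP1 (0.26) rose. SUGP1 did not pass without DMSO replicate 3, and RBM25 (-0.16), one of the 5, was lost with library size alone, with at least 10 counts in every library, with all 9 libraries in one fit, with protein-coding genes only, and without DMSO replicate 3 or SCH772984 replicate 3. Among the SR-related genes TRA2B fell by 1.08 and TRA2A was at 0.15 (adjusted p = 0.074).

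The kinases of SR proteins were the list in which most genes rose, 5 of 6 against 37.2% of all genes tested. CLK4 rose by 1.12 ± 0.10, CLK3 by 0.99 ± 0.08, CLK2 by 0.86 ± 0.08, CLK1 by 0.82 ± 0.08 and SRPK2 by 0.24 ± 0.07, and without DMSO replicate 1 SRPK2 did not pass, which left 4 of 6. SRPK1, a mainly cytoplasmic kinase, fell by 1.03 ± 0.06, from 224, 231 and 214 CPM to 109.7, 112 and 107 CPM. CLK1, a nuclear kinase, had 64.1, 63.5 and 66.4 CPM with DMSO, 76.7, 89.2 and 81.0 CPM with compound 1 and 104, 128 and 112 CPM with SCH772984. The ratio of CLK1 to SRPK1 counts was 0.275 to 0.311, 0.341 to 0.376 and 0.943 to 1.14 in these conditions.

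**Figure D5:**
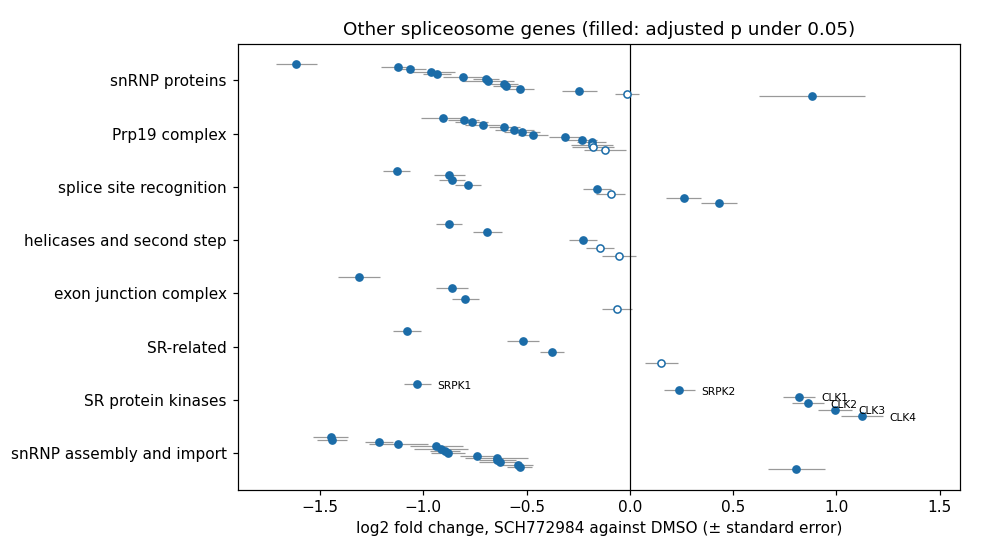
Log2 fold change with SCH772984 against DMSO, with bars of 1 standard error, for the 70 other spliceosome genes by list, filled where the adjusted p is under 0.05. The 6 SR protein kinases are labelled, with SRPK1 at -1.03 and the other 5 between 0.24 and 1.12.

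Compound 1 was compared with the same DMSO libraries. Of the 60 members tested, PRPF8 fell and SRSF5 rose after adjustment (1.67% each), against 0.374% of the 12849 genes tested falling and 0.490% rising. SRSF5 had 184, 195 and 198 CPM with compound 1, all above the highest DMSO library at 144 CPM, a log2 fold change of 0.48 ± 0.07 (edgeR adjusted p = 0.00599). PRPF8 (ENSG00000174231, chromosome 17, 1650629 to 1684882) had 737, 838 and 835 CPM, all below the lowest DMSO library at 1010.0 CPM (-0.38 ± 0.07, adjusted p = 0.0245). PRPF8 was lowest in compound 1 replicate 1, the library that stood apart. Without that library SRSF5 was at 0.51 (adjusted p = 4.74e-08) and PRPF8 at -0.32 (adjusted p = 1.29e-05).

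Neither call held in every fit that left out a single library. Over all genes, 10, 8 and 17 were called without DMSO replicate 1, 2 or 3. Leaving out compound 1 replicate 1, 2 or 3 gave 1251, 51 and 21, against 48 lower and 63 higher with all libraries. SRSF5 was past the threshold in 3 of the 6 fits that left out a library, and its adjusted p was 0.0998 without DMSO replicate 1, 0.107 without DMSO replicate 2 and 0.0564 without compound 1 replicate 3. PRPF8 was past it in 2 of 6, and its adjusted p was 0.123 without DMSO replicate 1, 0.252 without DMSO replicate 2, 0.123 without DMSO replicate 3 and 0.072 without compound 1 replicate 3. Their fold changes stayed between 0.45 and 0.51 for SRSF5 and between -0.42 and -0.32 for PRPF8 in these fits.

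At an unadjusted p under 0.05, 8 members were lower (13.3%) and 10 higher (16.7%), against 7.69% and 7.35% of all genes tested. The lower ones were PRPF8, PRPF19, SF3A1, SF3B3, SF3B4, SNRPA, LSM11 and U2AF2. The higher ones were SRSF5, SRSF6, LSM3, LSM5, LSM8, SNRPD2, SNRPE, SF3B6, PRPF39 and PRPF40B. LSM3 had 73.0, 61.6 and 58.6 CPM with compound 1 and 46.9 to 49.7 CPM with DMSO (0.41 ± 0.09, adjusted p = 0.0551), and LSM8 had 36.7, 40.8 and 38.5 CPM against 27.0 to 30.3 CPM (0.42 ± 0.10, adjusted p = 0.0598). Without compound 1 replicate 1, 8 members passed adjustment below 0 and 7 above it, where 6.10% of all genes tested fell and 3.46% rose. The 8 were PRPF8, PRPF19, PRPF6, SF3A1, SF3B4, SNRPA, LSM4 and U2AF2, and the 7 were SRSF5, SRSF6, SRSF11, LSM3, LSM5, LSM8 and PRPF39.

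By group, the median log2 fold change with compound 1 was -0.10 for SF3, -0.01 for Sm and LSm, 0.07 for PRPF and 0.08 for SR, with 0.00 over all genes. Without compound 1 replicate 1 these medians were -0.10, -0.02, 0.08 and 0.08. Summed normalized counts were 100% of the DMSO level for Sm and LSm, 92.1% for SF3, 89.7% for PRPF and 106% for SR. The Sm and LSm sum was 2496, 2202 and 2288 CPM in compound 1 replicates 1, 2 and 3 and 2288.5 to 2361 CPM with DMSO, so replicate 1 was above the DMSO range and replicates 2 and 3 below it. The SF3, PRPF and SR sums did not overlap with DMSO in any library, at 2042, 2096.5 and 2121 CPM against 2261 to 2268 for SF3, 2079, 2237 and 2229 against 2401 to 2475 for PRPF, and 2559.5, 2528 and 2588 against 2366 to 2472 for SR. The U2AF sum overlapped, since compound 1 replicate 1 was at 502 CPM, within the DMSO range of 495 to 512 CPM. The PRPF sum is dominated by PRPF8.

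With all libraries in the fit of the 2 conditions, TMM scaling and the filter on low counts, edgeR called none of the 70 other spliceosome genes with compound 1. Over all genes tested, 0.374% fell and 0.490% rose. At an unadjusted p under 0.05, 8 of the 70 were lower and 4 higher (11.4% and 5.71%), against 7.69% and 7.35% of all genes tested. Without compound 1 replicate 1 edgeR called 9 of the 70 lower and 2 higher, where 6.1% of all genes tested fell and 3.46% rose. The 11 were CLK1, DDX39B, EFTUD2, GEMIN4, GEMIN5, PUF60, SART1, SF1, SNRNP200, SRRM2 and XAB2. With no filter edgeR called CLK1, GEMIN5 and SRRM2, in the fit blocked by replicate CLK1 and SRRM2, and DESeq2 called CLK1. Over all genes, 417, 412 and 239 were called in these fits. CLK1 was at 0.35 with all libraries (adjusted p = 0.0664).

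The inhibitors were also compared with each other, without the DMSO libraries. Of the 60 members tested, 50 were lower with SCH772984 than with compound 1 and 2 were higher (83.3% and 3.33%), against 32.6% and 33.7% of the 13863 genes tested. The higher ones were SNRPN (1.19 ± 0.32, adjusted p = 0.00289) and SRSF11 (0.22 ± 0.09, adjusted p = 0.046). The libraries of SRSF11 overlapped between the inhibitors, and its call was lost with RLE scaling, with no filter on low counts, in DESeq2 and without compound 1 replicate 1 or 3 or SCH772984 replicate 2 or 3. SRSF5 and SRSF6, which were above DMSO in every library of both inhibitors, did not pass in this comparison, with differences of -0.14 (95% interval -0.30 to 0.03) and -0.02 (-0.17 to 0.13). PRPF8 was lower with SCH772984 than with compound 1 by 0.24 ± 0.08 (adjusted p = 0.0146), a call lost with library size alone, with at least 10 counts in every library and without compound 1 replicate 3 or SCH772984 replicate 2. LSM8, at 26.5 to 28.6 CPM with SCH772984 and 36.7 to 40.8 CPM with compound 1, was lower by 0.49 (adjusted p = 0.000435). The other members that did not pass were SF3B1, SRSF8, PRPF18, PRPF39, PRPF40B and LSM14B.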

How the data were processed

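RNA-Seq libraries of MIA PaCa-2 cells were made from total RNA and sequenced by Novogene. The authors deposited raw read counts per gene, without normalization, for 58735 genes in 9 libraries. The submitters' processing notes list HISAT2 2.0.5, featureCounts 1.5.0-p3 and hg38. The strand setting is not given in the sources used here. Gene lengths equalled the exon union of GENCODE 29 for all 61 members, and 58724 genes matched its identifiers and positions.

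Each pair of conditions was fitted separately over all genes with edgeR 4.0.16 in R 4.3.3 (TMM, filterByExpr with a minimum count of 10 and a minimum total of 15, robust quasi-likelihood test, Benjamini-Hochberg adjustment over all genes tested, threshold 0.05), on the deposited counts. Scripts were tested on simulated data. Standard errors are the absolute log2 fold change over the square root of F, and 95% intervals are 1.96 of them on either side. CPM use TMM factors over all 9 libraries, and RPKM divide these by exon length. Library totals of 9464432 to 13887859 counts limit precision for genes of few counts.

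The members and lists were chosen with earlier results of these data known. Named were, in each functional class, the members with the largest called fall and rise and the highest level per length, every member called with compound 1 and every member not called with SCH772984, and further members chosen after their values were seen. Alternatives were library size alone, RLE factors, no filter, a minimum of 10 counts in each library, one fit of all 9 libraries, a replicate block, DESeq2 1.42.0, unadjusted p, protein-coding genes and leaving out each library. Sharing of 100-base stretches was counted against all GENCODE 29 transcripts. Promoters came from RefSeq, GRCh38.p14. Protein sequences were not used here. Values of a few single genes are not reported here.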

Additional observations from a re-analysis of the deposited data

How the results depend on the processing

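With SCH772984 against DMSO, no setting reversed a call, and the members counted were 45 to 51 lower and 5 or 6 higher. Scaling by library size alone moved the median of all genes from 0.03 to 0.20, gave 45 lower and 6 higher members (LSM1, LSM14B, PRPF4B, SF3B1, SNRPD2 and SRSF8 were lost and SRSF6 was gained), and gave group medians of -0.60 (Sm and LSm), -0.48 (SF3), -0.24 (PRPF) and -0.48 (SR). Requiring at least 10 counts in every library lost SNRPD2 and PRPF4B, gained SRSF6 and gave -0.69, -0.57, -0.34 and -0.57, and protein-coding genes alone lost PRPF4B, gained SRSF6 and gave -0.73 for Sm and LSm. Leaving out single libraries gave -0.83 to -0.73 for Sm and LSm. Of the 70 other spliceosome genes, 46 were lower and 11 higher with library size alone (AQR, DHX8, PLRG1, RBM25, SNRNP25 and XAB2 were lost, SNRNP70 and TRA2A gained), and 47 to 53 lower and 8 to 10 higher elsewhere.

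With compound 1 the counts of members moved with most settings. They were 1 lower and 2 higher with library size alone, 2 and 3 with no filter, 1 and 3 with all libraries in one fit or in DESeq2, 8 and 10 at an unadjusted p, and 0 to 8 lower and 0 to 7 higher when single libraries were left out. Over all genes, 110 were called with library size alone, 417 with no filter, 188 with all libraries fitted together and 239 in DESeq2. The fit reported above called 48 lower and 63 higher, and 1933 passed at an unadjusted p. Leaving out single libraries gave 8 to 1251. Other spliceosome genes were 2 lower and 1 higher with no filter, 0 and 1 in DESeq2, 8 and 4 unadjusted, and 0 to 9 lower and 0 to 2 higher with single libraries left out. The SR median was 0.043 with no filter and 0.034 to 0.095 with single libraries left out. Where 3 members were higher they were SRSF5, LSM3 and LSM8.

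In SCH772984 against compound 1, 45 members were lower and 4 higher with library size alone, 45 and 3 (PRPF40B, SNRPN and SRSF11) with at least 10 counts in every library, 46 to 49 lower with single libraries left out, and 1 higher with RLE factors, no filter or DESeq2, and 1 to 2 with single libraries left out. Library size alone gave medians of -0.56, -0.46, -0.13 and -0.51, at least 10 counts in every library gave -0.62 (Sm and LSm), -0.53 (SF3) and -0.57 (SR), and single libraries left out gave -0.78 to -0.67 for Sm and LSm.

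Between samples with the same replicate number, correlations of deviations from the group means were -0.09 to 0.13. Between samples with different numbers they were -0.12 to 0.18, and not every sample correlated best with its own number. These correlations cannot show whether samples with the same number were handled together. With the replicate number as a block, 51 members were lower and 5 higher with SCH772984, 2 lower and 3 higher with compound 1 (other spliceosome genes 1 and 1), and 50 lower and 2 higher between the inhibitors. Over all genes, the block called 412 with compound 1, against 48 lower and 63 higher without it. The cause of these shifts was not tested. Genes under about 10 counts per library, SRSF12 above all, are beyond the depth of these libraries.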

Other observations

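Across the 61 members, Spearman's rho between exon length and the deviation from the DMSO mean was -0.21, -0.004 and 0.135 in DMSO replicates 1, 2 and 3, -0.33 in compound 1 replicate 1, 0.17 and 0.09 in compound 1 replicates 2 and 3, and 0.21 to 0.34 in the SCH772984 libraries. This is a description across genes of the same libraries, which are not independent replicates, and its part in the results was not tested.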
